A study of Rattus norvegicus with 8 samples.

Results

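The genes described here are 50 cell cycle and DNA replication genes of the rat, of which 18 act at the G1/S transition or in S phase and 32 act mainly in G2 and mitosis. They were found by symbol in deposited RNA-seq tables of cultured adipose-derived stem cells (ASC), from which fat cells arise, and of adipocytes (AD) differentiated from such cells. The ASC table lists 14295 genes and 46 of the members, 17 S-phase and 29 mitotic. The AD table lists 18236 genes and 47 of the members, 17 S-phase and 30 mitotic. E2f1, Ccnb2 and Cks2 were not analysed here in either table, and Foxm1 was not analysed here in ASC. Hmgb2 has more than 1 row, and the row with the higher mean (ENSRNOG00000013167) was used, so its reads may be split between near-identical copies.

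All cells came from inguinal fat of WT Wistar rats, and the diet lasted 6 months. The 4 groups, with 2 libraries each, were ASC of rats on a high-fat sucrose diet (ASC_HFS), ASC of rats on a control diet (ASC_C), adipocytes of the high-fat sucrose rats (AD_HFS) and adipocytes of the control rats (AD_C). ASC were grown in serum-containing medium, and confluent ASC became AD in medium with dexamethasone, 3-isobutyl-1-methylxanthine and insulin followed by medium with insulin. The series asks whether the diet leaves precursors and the adipocytes made from them altered. Age, passage number and how dense the ASC were when collected are not given in the sources used here, nor is it stated whether the paired libraries stand for different rats or dishes, so each p measures the spread between these samples only, which may be technical.

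Depth differed widely. The ASC_HFS libraries held 5851960 and 992618 reads and the ASC_C libraries 3339269 and 7290961, whereas the AD libraries held from 76083827 to 119555051. In ASC_HFS replicate 2, the shallowest library, 1 read was worth 3.63 normalized counts and a floor of 3 reads 10.9. All 14 mesenchymal progenitor markers were listed in ASC, where they took 5.89% and 6.35% of the reads in ASC_HFS, against 3.20% and 3.71% in ASC_C, and 12 of 14 adipocyte markers were listed in both tables, with from 2.41% to 2.75% of the reads in AD libraries and from 0.210% to 0.542% in ASC libraries. Macrophage and endothelial markers were also read in every library, and their shares are given after the member results.

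A dividing cell copies its DNA in S phase and parts the copies in mitosis. D-type and E-type cyclins start S phase, after which the Mcm2 to Mcm7 helicase, loaded by Cdc6 and Cdt1, opens the origins, Pcna clamps the polymerases to DNA, and Rrm1, Rrm2, Tyms and Tk1 supply nucleotides. Entry into mitosis needs Cdk1 with cyclins A and B, Plk1 and the Aurora kinases, and exit needs Cdc20 and Ube2c, which act with the anaphase-promoting complex to have cyclin B and securin destroyed. Transcripts of both classes are scarce in resting cells. In human and mouse cells, E2F factors bind promoters of many S-phase genes, and complexes containing the MuvB core bind a cell cycle genes homology region (CHR), often next to CCAAT boxes, in promoters of many mitotic genes. Preadipocytes stop dividing at confluence and differentiate after hormonal induction, in some models after a few more divisions.

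Promoters of 39 of the 50 members, 12 S-phase and 27 mitotic, could be matched in RefSeq (build GRCr8, 250 bases before to 50 bases after each gene start). Both strands were searched for the CHR (TTTGAA), the CCAAT box (CCAAT) and E2F motifs (TTTCCCGC, TTTGGCGC, TTTCGCGC or TTTGCCGC). The CHR letters stood in 70.4% of the mitotic promoters (19 of 27), in 8.33% of the S-phase promoters (1 of 12) and in 18.3% of all 33469 promoters. E2F letters had the opposite spread, with 7.41% of the mitotic promoters (2 of 27), 58.3% of the S-phase promoters (7 of 12) and 2.14% of all promoters. A CCAAT box stood in 74.1% of mitotic and 58.3% of S-phase promoters, against 37.5% of all, and a CHR together with a CCAAT box in 55.6% of mitotic promoters (15 of 27), in no S-phase promoter and in 7.41% of all. A match is a description of letters, not a site shown to be bound.

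The 150 bases before the start of 6 members show these layouts, 5′ to 3′ on each gene's own strand, with motif letters in capitals. Cdk1 (chr20:19265143-19265292, plus strand), Ccnb1 (chr2:33655226-33655375, minus strand) and Cdc20 (chr5:137255800-137255949, minus strand) are of the mitotic class. They were chosen for the largest falls in ASC_HFS, described below, among mitotic members with a matched promoter. Their layouts therefore need not be typical of the class.
Cdk1: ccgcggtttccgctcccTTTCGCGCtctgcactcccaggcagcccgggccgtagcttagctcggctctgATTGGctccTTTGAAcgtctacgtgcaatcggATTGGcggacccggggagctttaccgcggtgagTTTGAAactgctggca
Ccnb1: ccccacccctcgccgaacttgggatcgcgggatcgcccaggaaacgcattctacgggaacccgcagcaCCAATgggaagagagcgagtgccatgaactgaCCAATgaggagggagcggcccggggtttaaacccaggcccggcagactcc
Cdc20: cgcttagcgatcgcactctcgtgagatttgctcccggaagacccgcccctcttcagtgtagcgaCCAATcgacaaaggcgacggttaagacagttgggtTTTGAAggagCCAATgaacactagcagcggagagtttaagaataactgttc
Mcm5 (chr19:13488663-13488812, plus strand), Mcm6 (chr13:42404353-42404502, minus strand) and Mcm2 (chr4:122918095-122918244, minus strand) are of the S-phase class. They were chosen among its members with an E2F motif in this stretch, Mcm5 and Mcm6 for the largest falls in ASC_HFS. Mcm2 was chosen for the smallest difference there. They do not stand for the whole class, where 7 of 12 promoters had E2F letters. Mcm2 is also the S-phase member with CHR letters, at -215 and -175 from its start, outside the stretch shown.
Mcm5: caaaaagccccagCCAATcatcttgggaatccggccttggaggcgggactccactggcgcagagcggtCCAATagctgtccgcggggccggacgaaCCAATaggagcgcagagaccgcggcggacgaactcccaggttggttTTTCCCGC
Mcm6: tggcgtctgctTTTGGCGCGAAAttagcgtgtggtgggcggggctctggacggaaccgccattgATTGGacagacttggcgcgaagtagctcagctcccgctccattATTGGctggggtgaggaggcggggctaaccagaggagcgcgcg
Mcm2: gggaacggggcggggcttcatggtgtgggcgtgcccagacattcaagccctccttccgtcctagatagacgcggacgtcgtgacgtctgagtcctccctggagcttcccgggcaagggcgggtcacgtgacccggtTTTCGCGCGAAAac
Cdk1 has 2 CHR, 2 CCAAT boxes and 1 E2F motif in this stretch, with ATTGG being CCAAT read on the other strand. Cdc20 pairs 1 CHR with 2 CCAAT boxes, and Ccnb1 has 2 CCAAT boxes and no exact CHR letters. In Mcm6 and Mcm2 an E2F motif on one strand overlaps another on the opposite strand.

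In ASC, the diet was compared within the 4 ASC libraries. Most members were lower in ASC_HFS than in ASC_C, and more of the mitotic than of the S-phase class. Of 29 mitotic members 24 fell and none rose, and of 17 S-phase members 9 fell and none rose (limma-trend, two-sided, called when p adjusted by Benjamini-Hochberg over the whole table was under 0.05). Over all genes, 9.7% were called lower and 9.41% higher. The median log2 difference, HFS minus C on the deposited scale, was -1.14 for mitotic members, -0.89 for S-phase members and -0.04 for all genes, and the median ratio of normalized counts, C over HFS, was 5.81 for mitotic and 2.62 for S-phase members. All 29 mitotic and 16 S-phase members had a log2 difference below 0, against 53.7% of all genes. Both ASC_HFS libraries lay below both ASC_C libraries for 28 mitotic and 14 S-phase members, against 32.5% of all genes. Because RNA was read in bulk, fewer dividing cells and less RNA of these genes per cell cannot be told apart.

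**Figure D1:**
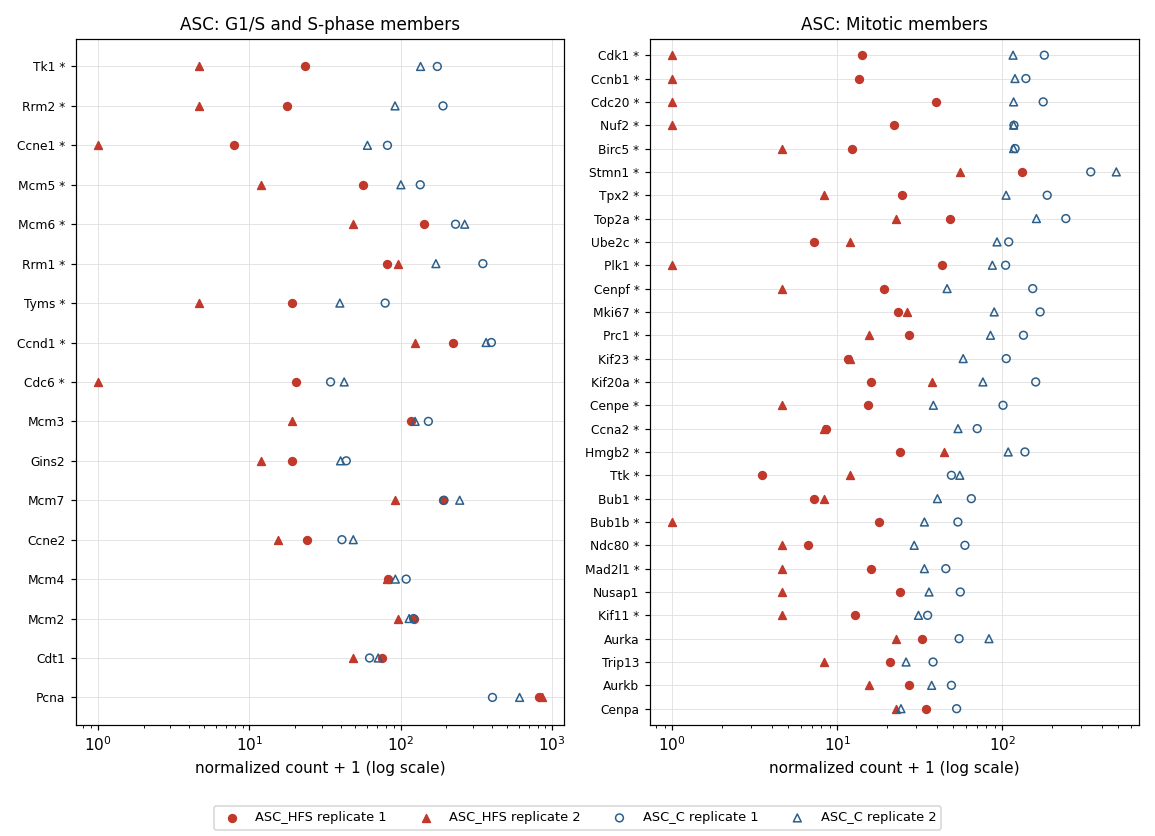
Normalized counts plus 1 on a log axis for the 17 S-phase members (left) and 29 mitotic members (right) in each ASC library, with filled symbols for ASC_HFS, open symbols for ASC_C and an asterisk for the 9 and 24 members called. The filled symbols lie left of the open ones for 28 of the 29 mitotic members, and Pcna, at the bottom left, is the S-phase member whose filled symbols lie to the right.

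Among the G1 cyclins, which drive cells towards S phase, Ccnd1 had 220 and 123 normalized counts in ASC_HFS, against 396 and 365 in ASC_C. Both HFS libraries were lower, and the gene fell 2.21-fold (log2 difference -0.95 ± 0.27 SE, limma-trend adjusted p = 0.0241). Here and below, folds of single genes are ratios of mean normalized counts. The limma-trend log2 differences and p are on the deposited scale, which compresses the differences of genes with few reads, so they do not test the printed fold itself. Ccne1, the cyclin E that acts with Cdk2, had 11 and 0 reads in ASC_HFS and 87 and 132 reads in ASC_C, or 6.86 and 0 against 80.6 and 59.2 normalized counts. It fell 20.4-fold (adjusted p = 0.00098), a ratio that rests on few HFS reads. Its paralog Ccne2 averaged 18.8 ± 6.06 in ASC_HFS and 43.7 ± 5.44 in ASC_C (SD, n = 2 each) and did not pass (adjusted p = 0.118).

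Of the subunits of the replicative helicase, Mcm6 and Mcm5 were called. Mcm6 had 141 and 47.1 normalized counts in ASC_HFS, against 229 and 263 in ASC_C, and Mcm5 had 55.5 and 10.9 in ASC_HFS, against 133 and 99.1 in ASC_C. For both genes the HFS libraries were the lower ones, and Mcm6 fell 2.62-fold (adjusted p = 0.0206) and Mcm5 fell 3.50-fold (adjusted p = 0.0164). The other subunits did not pass. Mcm7 had 190 and 90.7 in ASC_HFS, against 192 and 244 in ASC_C, so that 1 HFS library nearly reached the lower C library. Mcm2 had 122 and 94.3 in ASC_HFS, against 120 and 112 in ASC_C, overlapping groups with a log2 difference of -0.08 ± 0.23 (adjusted p = 0.844). Mcm3 and Mcm4 had log2 differences of -0.82 and -0.19 without overlap. Differences between subunits were not themselves tested.

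Of the factors that load the helicase, Cdc6 had 31 and 0 reads in ASC_HFS and 36 and 92 reads in ASC_C, and it fell (19.3 and 0 against 33.3 and 41.2 normalized counts, adjusted p = 0.0458). Cdt1, its partner in loading, had 74.2 and 47.1 in ASC_HFS, against 61.1 and 69.9 in ASC_C, and the groups overlapped. Gins2, a subunit of the active helicase, averaged 14.5 ± 5.09 in ASC_HFS and 40.8 ± 2.55 in ASC_C (SD, n = 2 each) and missed the threshold (adjusted p = 0.0744).

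Pcna, the sliding clamp used in replication and repair, stood apart from the other S-phase members. It had 816 and 856 normalized counts in ASC_HFS, against 402 and 608 in ASC_C. Both HFS libraries were higher, 1.66-fold on average, but the gene was not called (log2 difference 0.68 ± 0.28, limma-trend adjusted p = 0.107).

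The enzymes of nucleotide supply all fell. Tk1, the thymidine kinase, had 22.4 and 3.63 normalized counts in ASC_HFS, against 173 and 134 in ASC_C. Rrm1, the large subunit of ribonucleotide reductase, had 79.8 and 94.3 in ASC_HFS, against 347 and 170 in ASC_C. All HFS values of both genes were below all C values, and the decreases were 11.8-fold for Tk1 (adjusted p = 0.000397) and 2.97-fold for Rrm1 (adjusted p = 0.0172). Rrm2, the regulated small subunit, and Tyms, the thymidylate synthase, fell 13.7-fold and 5.36-fold, each with 1 read in ASC_HFS replicate 2.

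Among the mitotic kinases and cyclins, Cdk1, the kinase that starts mitosis, had 21 and 0 reads in ASC_HFS and 193 and 257 reads in ASC_C, and its cyclin Ccnb1 had 20 and 0 reads in ASC_HFS and 149 and 264 in ASC_C. As normalized counts these are 13.1 and 0 against 179 and 115 for Cdk1 and 12.5 and 0 against 138 and 118 for Ccnb1. Both genes had 0 reads in ASC_HFS replicate 2, the shallowest library, and few reads, above the floor of 3, in ASC_HFS replicate 1. They were well read in both ASC_C libraries (log2 differences -2.12 ± 0.28 and -2.01 ± 0.27, each with limma-trend adjusted p = 0.000291). Ccna2, cyclin A, had 7.48 and 7.25 normalized counts in ASC_HFS, against 69.5 and 52.9 in ASC_C, and fell 8.30-fold.

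Cdc20, the activator of the anaphase-promoting complex, had 38.7 and 0 normalized counts in ASC_HFS, against 176 and 116 in ASC_C. Both HFS libraries were lower but differed widely from each other, at 62 and 0 reads (log2 difference -1.83 ± 0.36, limma-trend adjusted p = 0.00378). Ube2c, the ubiquitin-conjugating enzyme of that complex, fell 11.7-fold. Checkpoint genes that hold the complex in check fell too, with C over HFS ratios of 7.66 for Ttk, 7.66 for Bub1, 5.08 for Bub1b and 4.15 for Mad2l1, whereas Trip13, which recycles Mad2 proteins, was not called (ratio 2.28, adjusted p = 0.193).

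Top2a, the topoisomerase that untangles sister DNA, had 47.4 and 21.8 normalized counts in ASC_HFS, against 242 and 160 in ASC_C. Stmn1, which destabilizes microtubules, had 132 and 54.4 in ASC_HFS, against 343 and 490 in ASC_C. Tpx2, which activates Aurora A on the spindle, had 23.7 and 7.25 in ASC_HFS, against 186 and 104 in ASC_C. In all of these the higher HFS library was well below the lower C library, and the genes fell 5.81-fold, 4.48-fold and 9.39-fold (limma-trend adjusted p = 0.00124, 0.00179 and 0.00098). Hmgb2, a chromatin protein, had 23.1 and 43.5 in ASC_HFS, against 136 and 108 in ASC_C, and fell 3.66-fold (adjusted p = 0.00734). Mki67, the proliferation marker Ki-67 that coats mitotic chromosomes, had 22.4 and 25.4 in ASC_HFS, against 169 and 88.3 in ASC_C, and fell 5.37-fold (adjusted p = 0.00392).

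Of the remaining mitotic members, the motors Kif11, Kif20a and Kif23, the spindle bundler Prc1, the kinetochore genes Ndc80, Nuf2, Cenpe and Cenpf, the kinase Plk1 and the passenger protein Birc5 fell between 4.16-fold for Kif11 and 15.8-fold for Birc5. The 5 mitotic members not called were Aurka, Aurkb, Cenpa, Nusap1 and Trip13. Aurka had 31.8 and 21.8 normalized counts in ASC_HFS, against 53.7 and 82.0 in ASC_C (adjusted p = 0.0625), and Aurkb had 26.2 and 14.5 in ASC_HFS, against 48.2 and 36.3 in ASC_C (adjusted p = 0.178). Both Aurora kinases were lower in both HFS libraries without reaching the threshold. Cenpa, the centromeric histone variant, had 33.7 and 21.8 in ASC_HFS, against 51.9 and 23.3 in ASC_C, and was the mitotic member whose groups overlapped.

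These ASC calls rest on few reads and on all 4 libraries. In ASC_HFS replicate 2 the 3-read floor was above the ASC_HFS mean for 15 mitotic and 4 S-phase members, and 6 mitotic and 2 S-phase members had 0 reads in ASC_HFS replicate 2. With any 1 ASC library left out, limma-trend called 0 genes in the whole table, with from 2318 to 4538 genes at an unadjusted p under 0.05. Limma-voom on the recovered reads of all 4 libraries called 28 members, where 1467 of 14295 genes were called lower and 1723 higher. With 1 library left out, an alternative added after the values were seen, the limma-voom count depended strongly on the library, as did its count over all genes. Thinned to the depth of the shallowest library, 12 members were called, where 472 of 14220 genes were called lower and 631 higher.

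In AD, where depth was far greater, most members had differences of the opposite sign. No member was called in AD_HFS against AD_C (limma-trend, lowest adjusted p = 0.101 among S-phase and 0.105 among mitotic members, and 0 members also by limma-voom), where 1.31% of all genes were called higher and 0.0329% lower. Before adjustment, p was under 0.05 with a higher level in AD_HFS for 26 of 30 mitotic and 7 of 17 S-phase members, against 9.59% of all genes. A log2 difference above 0 was found for 29 mitotic and 16 S-phase members, against 47.8% of all genes. Both AD_HFS libraries lay above both AD_C libraries for 28 mitotic and 13 S-phase members, against 24.2% of all genes. The median log2 difference was 0.82 for mitotic members, 0.34 for S-phase members and -0.01 for all genes, and the median ratio of normalized counts, HFS over C, was 2.07 and 1.32 for the 2 classes.

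**Figure D2:**
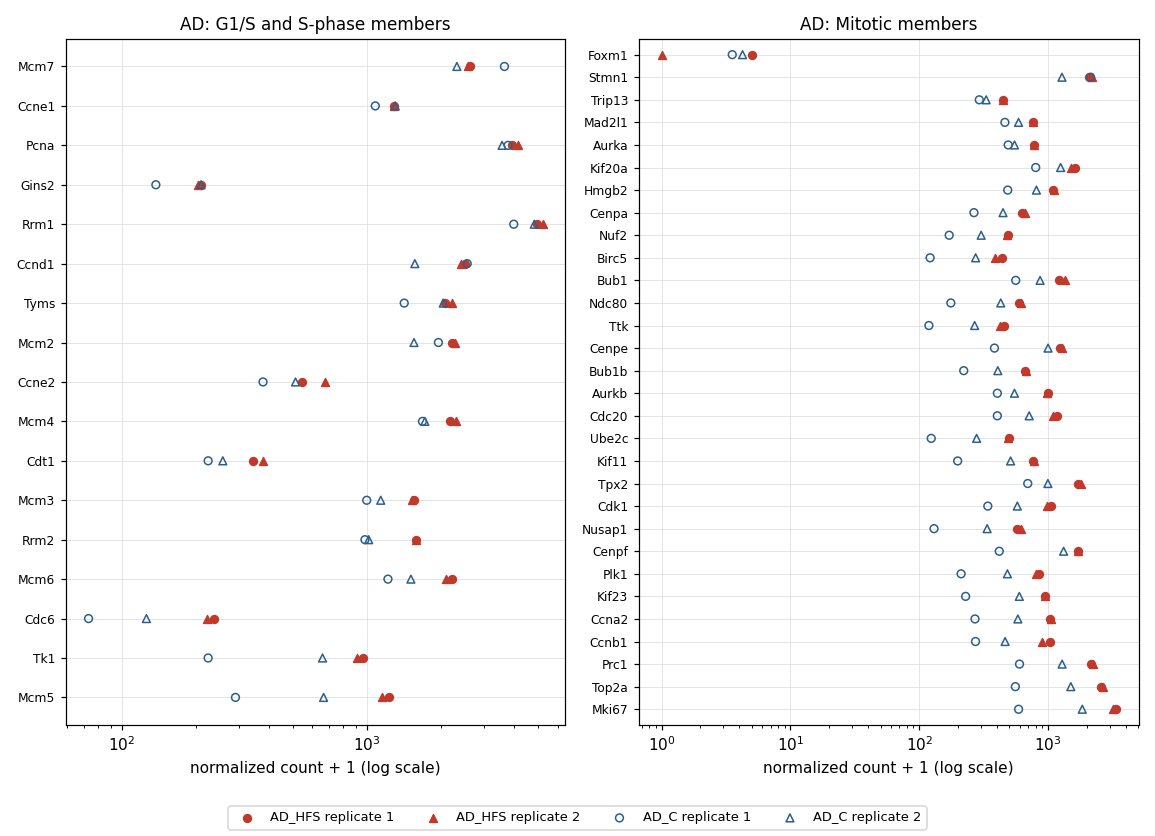
Normalized counts plus 1 on a log axis for the 17 S-phase members (left) and 30 mitotic members (right) in each AD library, with filled symbols for AD_HFS and open symbols for AD_C. The filled symbols nearly coincide and lie right of the open ones for 28 mitotic members, while the open symbols are spread, with AD_C replicate 1 the lower for 29 mitotic members. Foxm1 is at 5 reads or fewer.

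Mki67 had 3351 and 3210 normalized counts in AD_HFS, against 589 and 1840 in AD_C. Top2a had 2577 and 2659 in AD_HFS, against 556 and 1499 in AD_C. The AD_HFS libraries were close together and above both AD_C libraries, which were far apart from each other (log2 differences 1.46 ± 0.46 and 1.32 ± 0.39, adjusted p = 0.268 and 0.251). Cdk1 had 1059 and 976 in AD_HFS, against 339 and 576 in AD_C, and Ccnb1 had 1031 and 897 in AD_HFS, against 272 and 463 in AD_C. These too did not overlap, with ratios of 2.22 and 2.62 (adjusted p = 0.157 and 0.114). Stmn1, by contrast, overlapped, with 2086 and 2202 in AD_HFS, against 2136 and 1280 in AD_C.

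S-phase members differed less. Rrm1 had 4966 and 5217 normalized counts in AD_HFS, against 3974 and 4821 in AD_C, a ratio of 1.16. Pcna had 3926 and 4130 in AD_HFS, against 3769 and 3562 in AD_C, a ratio of 1.10. In both the HFS libraries were higher by little (adjusted p = 0.545 and 0.613). Mcm7 had 2638 and 2590 in AD_HFS, against 3641 and 2329 in AD_C, and the groups overlapped, as they did for Ccnd1, Ccne1 and Gins2. The S-phase members with the largest ratios were Mcm5 at 2.50, Cdc6 at 2.33 and Tk1 at 2.12, none of them called. Mcm5 had 1233 and 1152 in AD_HFS, against 290 and 665 in AD_C (adjusted p = 0.212). Rrm2 had the lowest adjusted p of the S-phase class, with 1591 and 1592 in AD_HFS, against 981 and 1016 in AD_C. Foxm1, a transcription factor of mitotic genes, had 5 and 0 reads in AD_HFS and 2 and 4 reads in AD_C, so no difference was detectable.

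The AD_C libraries differed from each other in these genes. AD_C replicate 2 was above AD_C replicate 1 for 29 of 30 mitotic and 13 of 17 S-phase members, where 51% of all genes were so ordered. The AD_HFS libraries were far closer, with a median chi-square per gene of 1.39 against 18.3 for the AD_C pair and 0.455 from counting error alone, so the pair differed by more than counting error and was kept as 2 libraries. The log2 difference of Mcm7 changed sign with the library left out, running from -0.48 to 0.17 by limma-trend or limma-voom. Leaving out either AD_C library, limma-trend called most members higher, but also a large share of all genes, in both directions. Without either AD_HFS library, or with their mean as 1 sample, it called 0 genes (unadjusted p was under 0.05 for 898, 881 and 857), and limma-voom without either AD_HFS library also called 0.

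The diet effects in ASC and in AD were compared directly, in 1 fit of all 8 libraries over the 14018 genes of both tables. The effect was lower in ASC than in AD for 27 of 29 mitotic and 8 of 17 S-phase members, and higher for none (limma-trend, adjusted p under 0.05). Over all genes, 7.53% were called lower and 4.93% higher. Median differences of effects were -2.01 for mitotic members, -1.27 for S-phase members and -0.07 for all genes on the log2 scale. The largest differences among members were -3.09 for Ccnb1, -3.05 for Cdk1, -2.87 for Top2a and, in the S-phase class, -2.76 for Tk1 (adjusted p = 0.00349, 0.00421, 0.0084 and 0.00834). Cenpa and Trip13 were the mitotic members that did not pass. Pcna had a difference of 0.55 in the other direction that did not pass (adjusted p = 0.207).

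**Figure D3:**
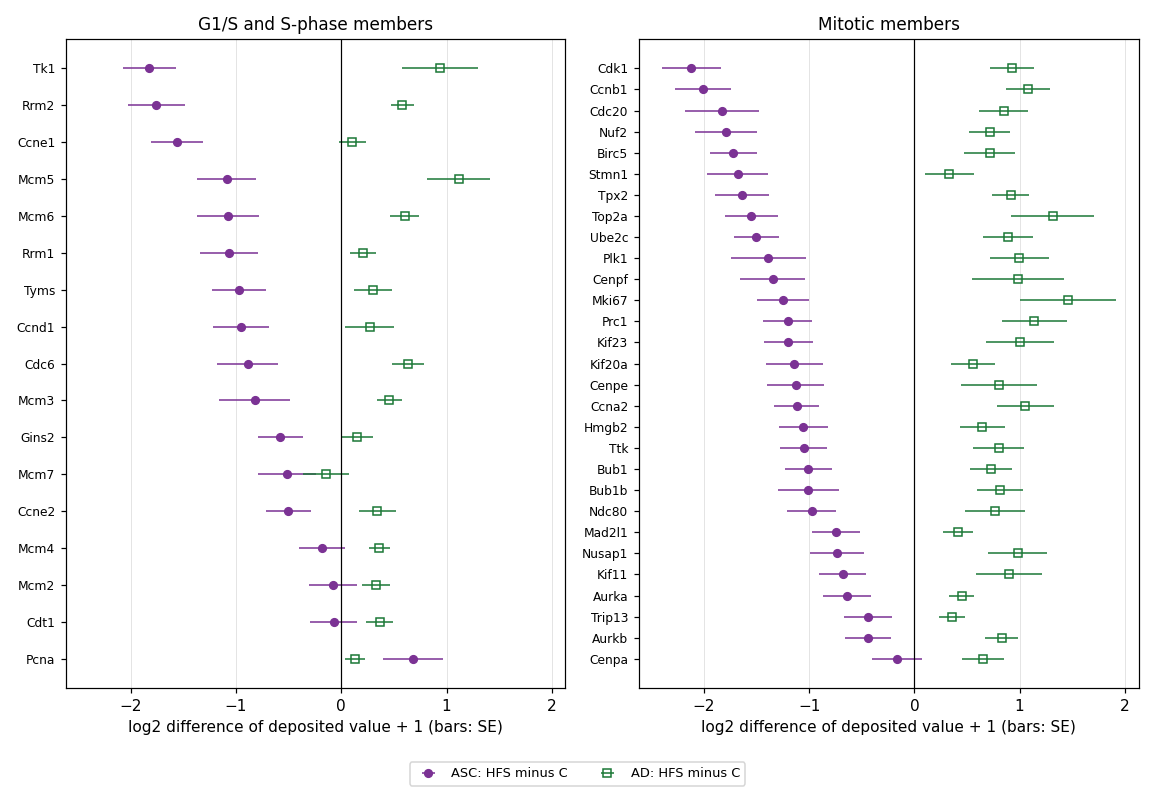
Log2 differences, HFS minus C, with SE, of the 17 S-phase members (left) and 29 mitotic members (right) of both tables, filled circles for ASC and open squares for AD. Every mitotic member is below 0 in ASC and above 0 in AD, and the S-phase members at the bottom (Mcm4, Mcm2, Cdt1 and Pcna) have ASC differences closest to or above 0.

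Among the 46 members of both tables, 37 had both HFS libraries lower in ASC and both higher in AD, 27 of them mitotic and 10 S-phase, a pattern found in 8.48% of the 14018 shared genes. The deposited scale compresses the differences of genes with few reads, and not equally in the ASC and AD tables, so the size of a difference of effects depends on it. The count of members also depended strongly on which library was left out, and the count over all genes varied too. With limma-voom on all 8 libraries 21 members were called, where 742 of 14018 genes were called lower and 556 higher. After thinning every library to the read total of the shallowest, 13 members were called, where 372 of 13998 genes were called lower and 253 higher.

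As shares of all reads in a library, the mitotic members took 0.0186% and 0.00947% in ASC_HFS, against 0.106% and 0.0759% in ASC_C. Their Wilson 95% intervals, which cover counting error only, ran up to 0.0197% in ASC_HFS and down to 0.0739% in ASC_C, so counting error did not bridge the groups. In AD the mitotic share was 0.0338% and 0.0339% in AD_HFS, against 0.0126% and 0.0216% in AD_C. Mean shares were thus 6.49-fold lower in ASC_HFS than in ASC_C, and 1.98-fold higher in AD_HFS than in AD_C. S-phase shares were 0.0553% and 0.0416% in ASC_HFS, against 0.0897% and 0.0794% in ASC_C, and 0.0315% and 0.0321% in AD_HFS, against 0.0256% and 0.0260% in AD_C. Mean S-phase shares were 1.74-fold lower in ASC_HFS than in ASC_C and 1.24-fold higher in AD_HFS than in AD_C. Pcna weighs on this sum: without it, an alternative added after the values were seen, the S-phase share was 0.0330% and 0.0178% in ASC_HFS, against 0.0767% and 0.0608% in ASC_C, 2.71-fold lower on average.

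**Figure D4:**
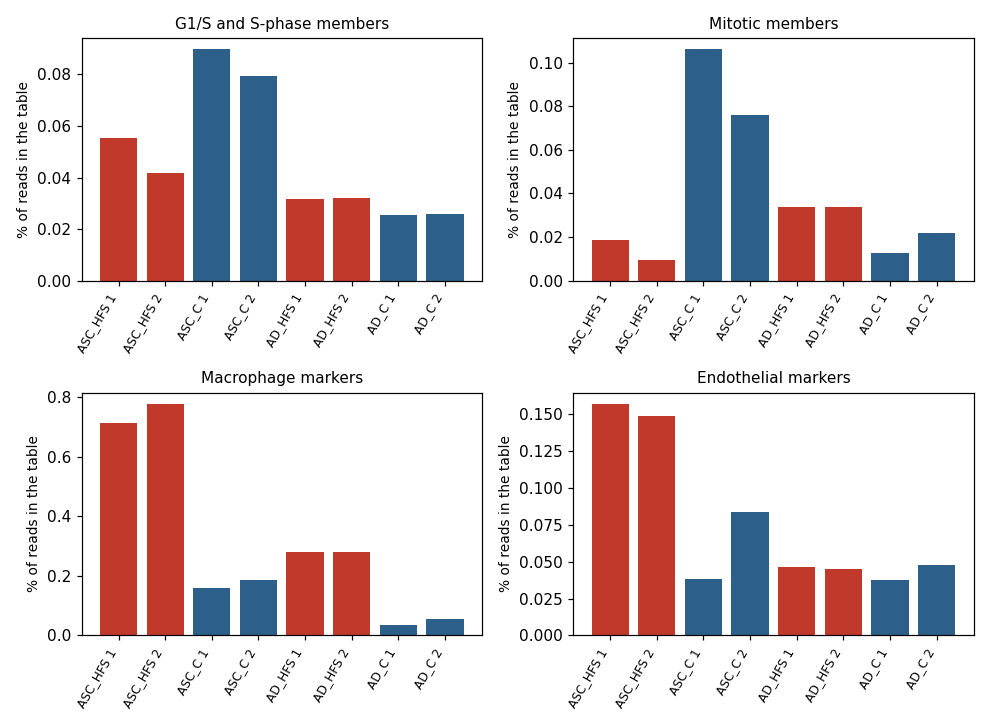
Percent of each library's reads taken by S-phase members, mitotic members, macrophage markers and endothelial markers, 1 bar for each of the 8 libraries, HFS in red and C in blue. Mitotic bars are low in ASC_HFS (0.0186% and 0.00947%) and high in AD_HFS (0.0338% and 0.0339%) next to their controls, while macrophage bars are high in the HFS libraries of both cell stages.

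Markers of other cells moved with the diet in the same libraries. Macrophage markers, 17 of 18 listed and none at 0 reads, took 0.713% and 0.778% of the reads in ASC_HFS, against 0.159% and 0.185% in ASC_C, and 0.280% and 0.279% in AD_HFS, against 0.0356% and 0.0540% in AD_C. In ASC as in AD, 12 of the 17 rose and none fell, where 9.41% of all genes rose in ASC and 1.31% in AD. Endothelial markers, 12 of 14 listed and none at 0 reads, took 0.157% and 0.148% in ASC_HFS, against 0.0380% and 0.0833% in ASC_C, with 8 of 12 called higher, and 0.0461% and 0.0451% in AD_HFS, against 0.0374% and 0.0477% in AD_C, where only Tie1 rose. Smooth muscle and pericyte markers, all 8 listed and only Cnn1 at 0 reads in a library (ASC_HFS replicate 2), took 0.0273% and 0.0186% in ASC_HFS, against 0.0537% and 0.0449% in ASC_C, and 0.0819% and 0.0815% in AD_HFS, against 0.0499% and 0.0365% in AD_C. In ASC the contractile genes Acta2 and Tagln fell and the pericyte gene Rgs5 rose, and in AD none was called. Macrophage shares were thus higher in HFS libraries of both stages, whereas smooth muscle and pericyte shares were lower in ASC_HFS and higher in AD_HFS, as the mitotic shares were. The smooth muscle and pericyte shares are sums, and in ASC the 8 markers did not move together. Both ASC_HFS libraries lay below both ASC_C libraries for 2 of them, against 32.5% of all genes, and above for 2, while 4 overlapped. In ASC the progenitor markers split, with 5 called higher and 3 lower (Pdgfra, Thy1 and Lum) of 14, and 5 of 12 adipocyte markers rose and none fell, against 9.41% of all genes called higher and 9.7% lower. Lymphoid markers, 4 of 9 listed in ASC and only Cd2 in AD, were under 0.001% of reads in every library. The part of these other cells, and of the unequal depth, in the member results was not tested.

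Other genes of the same machinery were read from 4 lists. In ASC, where 9.7% of all genes were called lower and 9.41% higher, 12 of 47 other replication genes fell and none rose (median log2 difference -0.47), among them the clamp loader subunits Rfc4, Rfc2 and Rfc3 (4.38-fold, 5.66-fold and 5.30-fold lower) and the primase Prim1 (3.96-fold lower). For 13 of the 47 the ASC_HFS mean was below the 3-read floor of ASC_HFS replicate 2, where 6 had 0 reads. Of 54 other mitotic genes listed, 29 fell and 1 rose (median -0.80), although the ASC_HFS mean of 35 was below the 3-read floor of ASC_HFS replicate 2, where 14 had 0 reads. Spc24, a kinetochore gene, averaged 5.30 ± 7.50 normalized counts in ASC_HFS and 133 ± 0.487 in ASC_C (SD, n = 2 each), and the securin gene Pttg1 averaged 8.30 ± 1.49 in ASC_HFS and 138 ± 0.700 in ASC_C. The spindle gene Tacc3 and the passenger complex gene Cdca8 fell 8.36-fold and 6.73-fold. Ccnf, cyclin F, went the other way, with 322 ± 16.3 in ASC_HFS and 158 ± 63.7 in ASC_C (limma-trend adjusted p = 0.0401).

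Genes that govern the choice between division and rest were called in both directions in ASC, in few genes each, where 9.7% of all genes fell and 9.41% rose. Of 10 listed G1 cyclin and CDK genes, Ccnd3 and Cdk4, partners at the start of the cycle, fell 5.06-fold and 2.21-fold, and Myc, a growth-promoting transcription factor, and Ccnh, the cyclin of the CDK-activating kinase, rose 2.44-fold and 2.37-fold. Of 18 listed inhibitor and quiescence genes, 3 rose and 2 fell. Btg1 and Btg2, antiproliferative genes, rose 3.76-fold and 3.45-fold. Cdkn1a, the CDK inhibitor p21, averaged 989 ± 106 in ASC_HFS and 343 ± 44.3 in ASC_C (SD, n = 2 each, limma-trend adjusted p = 0.00383). Cdkn1c, the CDK inhibitor p57, fell 2.47-fold, and Cdkn2a, which encodes an inhibitor of Cdk4 and Cdk6, had 0 reads in both ASC_HFS libraries against 21.4 ± 1.14 normalized counts in ASC_C, so it was at least 3.36-fold lower with the HFS mean set to the floor of 3 reads per library.

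In AD none of these 4 lists had a called gene by limma-trend. Before adjustment, p was under 0.05 with a higher level in AD_HFS for 33 of 55 other mitotic genes, 10 of 47 other replication genes, 1 of 10 G1 genes and 2 of 18 inhibitor genes, against 9.59% of all genes. Tacc3 averaged 1201 ± 41.6 in AD_HFS and 426 ± 155 in AD_C (adjusted p = 0.0875), Pttg1 averaged 302 ± 2.02 in AD_HFS and 125 ± 32.0 in AD_C (adjusted p = 0.112), and Cdkn1a averaged 10614 ± 166 in AD_HFS and 9759 ± 67.2 in AD_C (SD, n = 2 each, adjusted p = 0.609).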

How the data were processed

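RNA was sequenced from 8 libraries (50 bp paired-end reads, per the labels). An rRNA depletion kit is named in the protocol although the molecule is called polyA RNA, and which applies is unsettled. Per the submitters' processing notes, FastQC, STAR, featureCounts and DESeq2 were used on the builds mRatBN7.2 and rn7; versions and strand settings are not given in the sources used here. The authors deposited 1 table per cell stage, normalized apart. What the authors deposited is a signal: normalized counts after a variance-stabilizing transformation, taken back from log2, with 34.7 (ASC) and 107 (AD) standing for 0 reads. Inverting this scale returned whole reads for 100% of values (tolerance 1e-06). These gave the depths, reads, normalized counts (mean ± SD) and ratios printed here; normalized counts are comparable within a table only.

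HFS was tested against C within each table with limma-trend on log2(value + 1), using limma 3.58.1 in R 4.3.3. A minimum mean value of 10 removed no gene. Tests were two-sided, and genes were called at p under 0.05 after Benjamini-Hochberg adjustment over the table. The difference between the diet effects used 1 fit of all 8 libraries. The fits were tested on simulated data. Tables and figures used Python 3.11.15, pandas 2.3.3 and matplotlib 3.10.9.

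Members and lists were chosen with earlier results of these data known, so no list is independent evidence of its direction. Library values were given for the 5 called and 3 not called members with the highest mean value per class and table, and for up to 4 called genes per list and direction. Ccne1, Cdc6, Cdt1, Cdk1, Ccnb1, Ccna2 and Mki67 in ASC and Cdk1, Ccnb1, Mcm5, Rrm2 and Foxm1 in AD, and the means of Ccne2, Gins2 and, in AD, Tacc3, Pttg1 and Cdkn1a, were added after values were seen. Alternatives were pseudocounts of 0.5 and 5, no filter, a mean value of at least 50, a common upper quartile, quantile normalization, a replicate block, limma-voom on recovered reads, thinning, 1 fit of all 8 libraries and each library left out. Alternatives chosen after seeing the data were log2 of normalized counts + 1, limma-voom with each library left out, a crossed replicate block in ASC, averaged AD_HFS libraries and the S-phase share without Pcna. Intervals and floors cover counting error only. Promoter sequences are from RefSeq (GRCr8), and no gene coordinates of the authors' build were at hand.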

Additional observations from a re-analysis of the deposited data

Results flagged for a closer look

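The diet effect, HFS minus C, differed between ASC and AD for 35 members when the difference itself was tested (limma-trend over 8 libraries, Benjamini-Hochberg adjusted p under 0.05 over 14018 genes). Of all these genes, 7.53% were called lower in ASC than in AD and 4.93% higher. The values below are the ASC effect minus the AD effect on the log2 scale of the deposited values, and all are below 0.

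Among S-phase members the differences were -1.66 for Ccne1, -1.53 for Cdc6, -2.20 for Mcm5, -1.68 for Mcm6, -1.27 for Rrm1, -2.34 for Rrm2, -2.76 for Tk1 and -1.27 for Tyms.

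Among mitotic kinases, cyclins and their regulators the differences were -3.05 for Cdk1, -3.09 for Ccnb1, -2.17 for Ccna2, -2.39 for Plk1, -1.09 for Aurka, -1.27 for Aurkb, -2.68 for Cdc20, -2.39 for Ube2c, -1.85 for Ttk, -1.74 for Bub1, -1.82 for Bub1b and -1.16 for Mad2l1. Among spindle and motor genes they were -2.55 for Tpx2, -1.58 for Kif11, -1.70 for Kif20a, -2.20 for Kif23, -2.34 for Prc1, -1.72 for Nusap1 and -2.01 for Stmn1. Among kinetochore and chromatin genes they were -1.75 for Ndc80, -2.51 for Nuf2, -1.93 for Cenpe, -2.33 for Cenpf, -2.43 for Birc5, -2.87 for Top2a, -1.70 for Hmgb2 and -2.71 for Mki67. In Aurka, Aurkb and Nusap1 neither the ASC nor the AD effect passed alone, while the difference did.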

How the results depend on the processing

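Among alternatives that kept all libraries, ASC counts of members moved over 1.5-fold only on thinning (12 members, 1 S-phase and 11 mitotic; 1103 of all genes). Pcna was called higher, the 1 S-phase member so called, in 1 fit of all 8 libraries and under the crossed replicate block. Whether libraries with the same replicate number are paired is not stated. Within a table, deviations of same-numbered HFS and C libraries correlated at -0.123 in ASC and 0.00141 in AD. Pairing between ASC and AD libraries was not tested, and the fit of all 8 libraries treated them as independent. The replicate block gave 36 members in ASC (2976 of all genes), and 8 in AD (1 S-phase and 7 mitotic, 661 of all genes). In AD, 1 fit of all 8 libraries gave 2 mitotic members, Aurkb and Ccna2 (423 of all genes). All genes called in AD came to 95 with a common upper quartile, 150 with limma-voom, 48 thinned, 112 with log2 of normalized counts and 0 with AD_HFS averaged. For the difference between effects, limma-voom called 21 members (4 S-phase and 17 mitotic) and thinning 13 (2 and 11; 625 of all genes).

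With each library left out, by limma-trend or limma-voom for ASC and AD, the lone library of a group is assumed to vary like the other group. ASC then gave from 0 to 32 members (S-phase lower 0 to 8, S-phase higher 0 to 1, mitotic lower 0 to 23; all genes 0 to 3644). AD gave from 0 to 43 (S-phase higher 0 to 14, S-phase lower 0 to 1, mitotic higher 0 to 29; all genes 0 to 9830). The difference between effects, left out by limma-trend only, gave from 10 to 37 (S-phase lower 1 to 10, S-phase higher 0 to 1, mitotic lower 9 to 27; all genes 425 to 2382). Log2 differences, each on its own tool's scale, that changed sign were those of Cdt1 in ASC (0.0221 with limma-voom; -0.43 to 0.17 with libraries left out), Cenpa (-0.73 to 0.43) and Mcm2 (-0.28 to 0.0672) in ASC, and Ccnd1 (-0.0565 to 0.65), Ccne1 (-0.0126 to 0.26), Gins2 (-0.0175 to 0.59), Mcm7 (-0.48 to 0.17) and Foxm1 (-2.52 to 0.39) in AD. None of these was called with all libraries, and the cause was not tested. In ASC, depth limits what can be said of genes under 10.9 normalized counts.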
